A study of Mus musculus with 4 samples.

Results

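The nuclear genes for the subunits of respiratory complexes II, III, IV and V and for cytochrome c were examined in mouse oocytes before and after meiotic maturation, in wild type and in oocytes deleted for ERK. Members were chosen by symbol alone: Sdha to Sdhd, every symbol that starts with Uqcr, Cox4 to Cox8 or Atp5, Cyc1 and Cycs. This gave 49 of the 23309 gene symbols in the files: 4 for complex II, 9 for complex III, 18 for complex IV, 17 for complex V and Cycs. Of these, 44 had a mean of at least 1 FPKM over the 4 libraries, against 9990 of all symbols. The other 5 (Cox7a1, Cox7b2, Cox8b, Cox8c and Atp5s) were listed at 0 in every library, and each member stood on 1 row of the files.

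The series compared fully grown oocytes (GV, germinal vesicle, arrested before meiosis resumes) with mature eggs (MII, metaphase of the second meiotic division), to follow the loss of stored maternal mRNA when ERK kinase is deleted. There were 4 libraries, 1 in each group: wild-type GV, wild-type MII, Erk-/- GV and Erk-/- MII. All came from ICR females aged 21 to 23 days, with 60 cells lysed together per library. Per the labels the females received PMSG, which makes follicles grow, and hCG, which brings on ovulation. They do not give the Erk gene, the allele or the Cre driver behind "Erk-/-". One protocol text names Btg4-/- females in place of Erk-/-, and the design text speaks of single oocytes. With 1 library in each group there is no replicate spread and no test can be made, and each difference given here is one between single libraries.

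Oxidative phosphorylation in the inner mitochondrial membrane supplies most of the ATP of the oocyte, which has little glycolysis of its own. Complex II passes electrons from succinate to ubiquinone, complex III passes them from ubiquinol to cytochrome c, complex IV passes them from cytochrome c to oxygen, and complex V makes ATP from the proton gradient that results. Fully grown oocytes are almost silent in transcription, so their mRNA is a store that is translated or degraded during maturation. In this store the cytoplasmic polyadenylation element, a U-rich motif near the 3′ end, is known to mark messages that gain a long poly(A) tail as meiosis resumes.

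The 3′ ends of the members were therefore read first. Transcript ends came from GENCODE release M21 on build GRCm38, a different build from the mm9 used for the deposited values, and 48 of 49 members matched by symbol. The polyadenylation signal, searched as AATAAA or ATTAAA on the transcript strand within the last 40 bases, lay in 86.0% of the 43 matched members that passed the level filter and in 74.8% of the 9109 matched genes. Each stretch below is 30 bases, 5′ to 3′ on the transcript strand, with the signal in capitals. The genes were chosen to show the range of behaviour: Cox7c and Atp5e were among the most depleted messages in wild-type MII, Cox8a and Sdha were higher there than in wild-type GV, and Cox7b and Atp5j were lower at MII in wild type but higher at MII in the other genotype.
Cox7c (chr13:86044819-86044848, minus strand): gaaaaaattgtaAATAAActaatgacataa
Atp5e (chr2:174461081-174461110, minus strand): attgactatgccAATAAAttaacatggttc
Cox8a (chr19:7215166-7215195, minus strand): cccctttgtaacAATAAAgtctatttaaac
Sdha (chr13:74322257-74322286, minus strand): aattgtaagccaAATAAAccctttctcaaa
Cox7b (chrX:106022420-106022449, plus strand): tgttgctgaagaAATAAAggctatctgtta
Atp5j (chr16:84827876-84827905, minus strand): tcaaaaaattcaAATAAAcattcatttcac
These 6 were taken only from members that hold the signal. It was not found in the window of 6 members that passed the filter: Uqcrq, Cyc1, Cox6a2, Uqcrc2, Cox6b1 and Atp5l. Of these, Uqcrq, Cyc1 and Cox6a2 were listed at 0 in wild-type MII. So were Cox7c, which holds the signal, and in all 1881 of the 9990 genes compared. A link between the signal and these values was not tested.

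The polyadenylation element, searched as TTTTAT or TTTTAAT on the transcript strand in the last 100 bases, was rare among the members. It was found in 2 of the 43 (4.65%), Cox5a and Cox6a2, against 19.5% of the 9109 genes. Among the 43 complex I genes, taken by names that start with Nduf without leaving out assembly factors, it was found in 14.0%. A 3′ UTR under 100 bases, too short to fill the window, was annotated for 11.6% of the members, 37.2% of the complex I genes and 5.93% of all genes, and its part in the contrast was not tested. The ends of both members are shown with those of Ccnb1 (cyclin B1) and Wee2, which are known for this element and were chosen after their values were seen, with the element in capitals.
Cox5a (chr9:57532330-57532359, plus strand): tgcctggaaatgTTTTATttgaacaaattt
Cox6a2 (chr7:128205469-128205498, minus strand): cctgcattttcaTTTTATtttttaaaaatt
Ccnb1 (chr13:100778776-100778805, minus strand): tctcatttgctgTTTTAATttatacatctg
Wee2 (chr6:40466784-40466813, plus strand): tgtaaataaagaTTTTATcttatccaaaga
In wild type Ccnb1 stood at 208 FPKM at GV and 973 at MII, and Wee2 at 128 and 500. Cox5a stood at 187 and 90.9, and Cox6a2 at 28.8 and 0, so both members with the letters were lower at MII. A match shows the letters only and says nothing of whether the element is used.

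FPKM (fragments scaled by transcript length and by the library's mapped total) summed to between 401160 and 453226 per library. Its values are shares of a library, so a change in total RNA per cell is not seen in them. A share can also move because other genes change. The labels do not say how mRNA was purified. Mapk3, which encodes ERK1, had 333 FPKM in wild-type GV, 25.7 in wild-type MII, 52.3 in Erk-/- GV and 34.3 in Erk-/- MII. Its level at MII was therefore not lower under the Erk-/- label as deposited, hence the name "MII library labelled Erk-/-" used below. Dividing each value by its library's median-of-ratios factor, 0.741 in wild-type MII and 1.07 in Erk-/- MII, turns this order. The check therefore does not settle the genotype at MII. All 10 oocyte markers examined were present in every library. Like the subunits, they were mostly lower at MII in wild type, 8 of 10 at least 2-fold (median log2 ratio -2.63), and higher at MII under the Erk-/- label than in wild type, 8 of 10 with none lower (median 1.87). Markers of granulosa and cumulus cells, which surround the oocyte, were above 0 in 2 to 5 of 15 genes per library. They summed to 12.4 to 22.7 FPKM, with Amh, Fshr and Foxl2 listed at 0 in all. Most of each sum came from Cyp19a1 or Inha. In wild-type GV, wild-type MII, Erk-/- GV and Erk-/- MII, Cyp19a1 had 15.5, 21.8, 0 and 10.8 FPKM. Inha had 3.80, 0, 11.3 and 0.0698 in the same order. Of the blood markers only Cd68 was above 0, at 1.58 FPKM in wild-type MII, and at 6.79 in MII labelled Erk-/-. Of the endothelial and stromal markers only Pecam1 was above 0, at 25.6 to 64.3 FPKM.

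The deposited values of these genes have a feature of their own. Each FPKM comes with the authors' lower and upper bound, and 28, 20, 26 and 23 of the 44 members exceeded their upper bound in wild-type GV, wild-type MII, Erk-/- GV and the MII library labelled Erk-/-. The same happened in 10.2%, 7.09%, 7.97% and 7.61% of all genes compared. The excess was 1.01- to 2.12-fold in these members, and Atp5k had the largest excess in each library. Among the 22 members with shorter coding sequences it was seen in 17, 14, 16 and 17, and among the 21 with longer ones in 11, 6, 10 and 6, in the same order of libraries. When the middle of the bounds was used in place of FPKM for all genes, 1 of 220 member calls across the comparisons moved, that of Cox6c in wild-type maturation. Processed pseudogenes are known for several of these families, and how reads that map to several places were treated is not given in the sources used here.

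Subunit mRNA was lower in wild-type MII than in any other library. Summed over all members, FPKM was 8914 in wild-type GV, 3142 in wild-type MII, 7225 in Erk-/- GV and 5957 in the MII library labelled Erk-/-, or 1.97%, 0.783%, 1.72% and 1.44% of each library's sum. The MII sum was 35.2% of the GV sum in wild type and 82.5% in the other genotype. When libraries were rescaled by the median of gene ratios, these shares became 62.5% and 94.9%. In wild-type GV 25 members reached 100 FPKM, against 8 in wild-type MII, 22 in Erk-/- GV and 19 in the MII library labelled Erk-/-. Wild-type MII was the lowest of the libraries for 31 of 44 members, against 47.3% of all genes compared. Wild-type MII also stood apart as a library: 1881 of the 9990 genes compared were listed at 0 in it, against 733 to 1101 in the others, and 3570 genes reached 10 FPKM, against 4397 to 5682. The part of this in the members' low values and zeros was not tested.

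**Figure D1:**
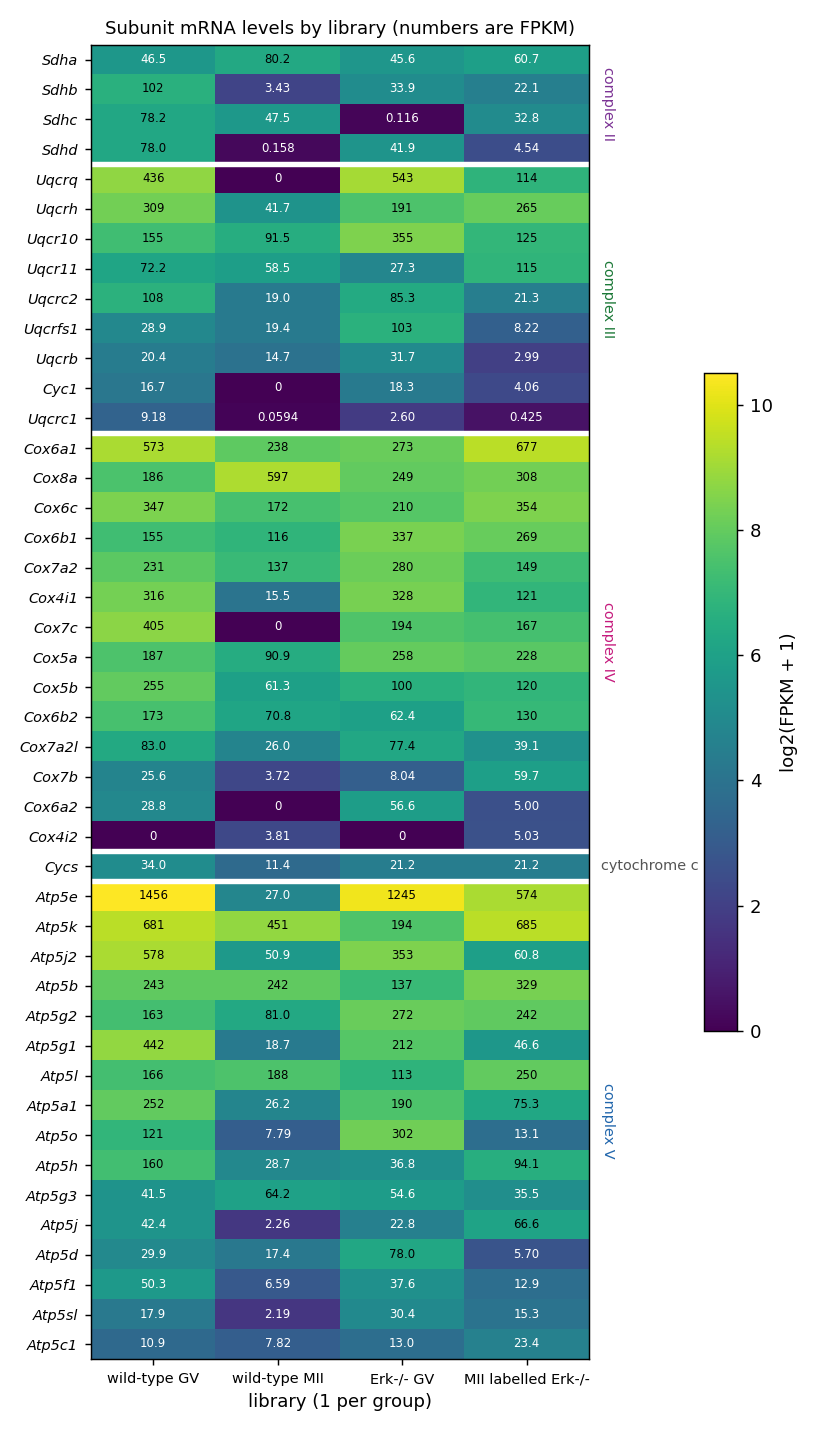
Levels of the 44 members that passed the filter, with rows for genes grouped by complex and columns for the 4 libraries. Colour gives log2(FPKM + 1) and the printed number is FPKM. The wild-type MII column is the darkest, with 4 members listed at 0.

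The complexes differed in how their summed FPKM in wild-type MII compared with that in wild-type GV, a comparison of library shares and not of amounts. In wild type the MII sum was 51.7% of the GV sum for complex IV (2966 to 1532 FPKM) and 43.1% for complex II (305 to 131). It was 27.4% for complex V (4455 to 1222) and 21.2% for complex III (1154 to 245). Complex IV thus went from 33.3% to 48.8% of all subunit FPKM, and complex V from 50.0% to 38.9%. In the other genotype the MII sum was 108% of the GV sum for complex IV, 99.0% for complex II, 76.9% for complex V and 48.3% for complex III. Complex III had the smallest such share in both genotypes. With rescaling the wild-type shares were 91.6%, 76.4%, 48.7% and 37.6% in the first order given, and the others 124%, 114%, 88.5% and 55.6%. The 99.0% of complex II therefore passes to the other side of 100% with rescaling.

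Single genes weigh heavily in these sums. Uqcrq made up 37.8% of the complex III sum in wild-type GV, and without it the wild-type MII share of complex III was 34.1% in place of 21.2%. Atp5e made up 32.7% of complex V there, and without it the share of complex V was 39.8%. Sdha made up 61.1% of complex II in wild-type MII and 15.3% in wild-type GV, and without it the share of complex II was 19.8%. Without Cox6a1, its highest member by mean, the share of complex IV was 54.1%. Complex IV kept the most with or without the genes named so far, and complex II went from the second place to the last. Cox8a was not left out in turn. It made up 39.0% of the complex IV sum at MII in wild type, and 19.0% of all subunit FPKM there. It went from 186 FPKM before maturation to 597 after, so the complex IV share is lower without it. With Cox8a taken out of both sums, the share of complex IV falls below the 43.1% of complex II. The first place of complex IV therefore rests on Cox8a. Its part of the remaining subunit FPKM is also smaller in both libraries, though still larger at MII than at GV.

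**Figure D2:**
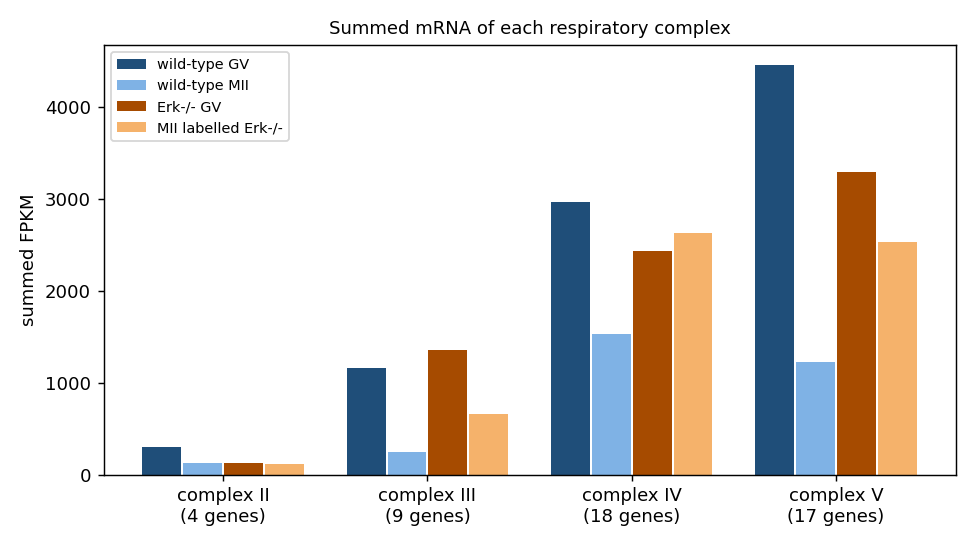
Summed FPKM of the genes of complexes II, III, IV and V in each library, on a linear axis from 0. Bars are single libraries without error. The wild-type MII bar is the lowest of its group for complexes III, IV and V, while for complex II the 3 libraries other than wild-type GV lie between 120 and 131.

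The question asked of the maturing wild-type oocyte was which subunit messages stood lower at MII. Ratios below are log2 of (FPKM + 1) over (FPKM + 1), a scale that compresses changes between low values, and a gene counts as higher or lower when the ratio reaches 2-fold. At MII 27 of the 44 members were lower than at GV and 2 were higher, against 49.6% lower and 20.6% higher among all 9990 genes. Their median was -1.57, and that of all genes was -0.97. The members' share of 61.4% lower is above the background and their share of 4.55% higher is below it. After rescaling, 21 were lower and 4 higher, against 40.4% and 29.6% of all genes, and the medians were -0.77 and -0.30. Cox5a, Cox6a1, Cox6b2, Cox6c, Cox7a2l and Cycs were then within 2-fold, and Sdha and Atp5g3 were higher. By complex, 10 of 14 were lower in complex IV, 9 of 16 in complex V, 5 of 9 in complex III and 2 of 4 in complex II, and with rescaling the count in complex IV was 5 of 14 and the others were as before. Both genes that were higher belong to complex IV.

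In the other genotype, from Erk-/- GV to the MII library labelled Erk-/-, 17 members were lower and 11 higher, against a background of 35.6% lower and 22.9% higher. The median was -0.46, and that of all genes was -0.26. These shares lie near the background. Complex III had 7 of 9 lower and 1 higher (median -1.93), while complex IV had 2 of 14 lower and 4 higher (median 0.04). As the plot of maturation ratios shows, 13 members were lower in both genotypes: Atp5a1, Atp5e, Atp5f1, Atp5g1, Atp5j2, Atp5o, Cox4i1, Cox6a2, Cyc1, Sdhd, Uqcrc1, Uqcrc2 and Uqcrq. This is 29.5% of the members, near the 26.7% of all genes with the same pattern.

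**Figure D3:**
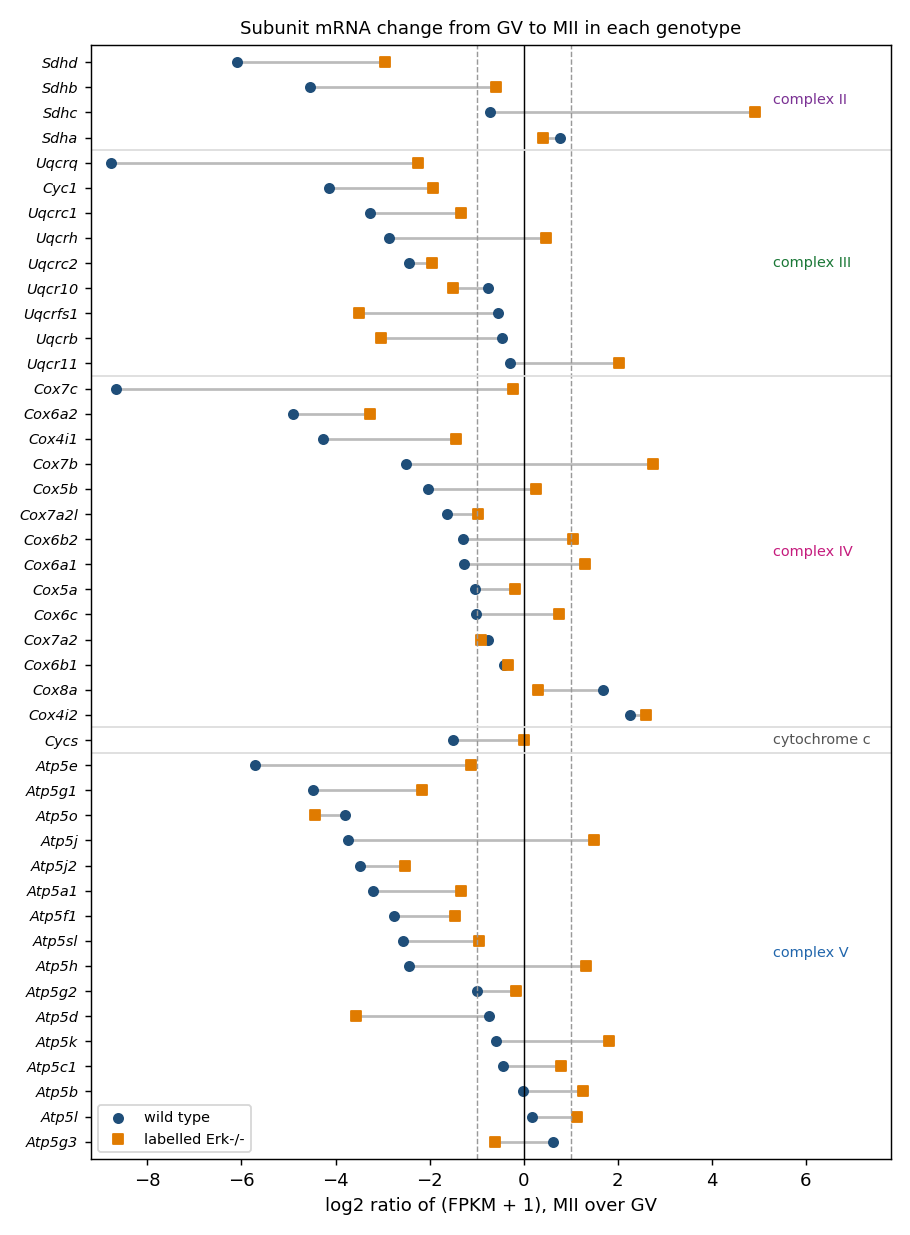
Log2 ratio of (FPKM + 1) from GV to MII for each member in wild type (circles) and in the genotype labelled Erk-/- (squares), grouped by complex, with dashed lines at 2-fold. Most circles lie left of their squares, and Cox7b, Atp5j, Atp5h, Cox6a1 and Cox6b2 lie beyond the dashed lines on opposite sides. Ratios of genes listed at 0 depend on the added 1.

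Complex II holds 4 subunits, and they did not move together. Sdha, the flavoprotein that oxidises succinate, had 46.5 FPKM in wild-type GV, 80.2 in wild-type MII, 45.6 in Erk-/- GV and 60.7 in the MII library labelled Erk-/-. It was the most even of the complex, within 2-fold in every comparison as deposited, and in wild-type maturation its log2 ratio was 0.77, or 1.59 rescaled. Sdhb, the iron-sulphur subunit (mm9 chr4:140517186-140535107), had 102, 3.43, 33.9 and 22.1 FPKM in the same order of libraries. Wild-type MII was far below the rest for Sdhb, 29.8-fold under wild-type GV and 6.46-fold under the MII library labelled Erk-/-. Sdhc, a membrane anchor (mm9 chr1:173059288-173080734), had 78.2, 47.5, 0.116 and 32.8 FPKM. For Sdhc it was the Erk-/- GV library that stood apart, with deposited bounds of 0 to 0.296, and its ratios of 4.92 for maturation and -6.15 for genotype at GV rest on that library alone. Sdhd, the other anchor (mm9 chr9:50404445-50411954), had 78.0, 0.158, 41.9 and 4.54 FPKM. It was low in both MII libraries, and the bounds of its wild-type MII value ran from 0 to 0.343.

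In complex III the small subunits carried most of the signal. Uqcrq, a small subunit bound to cytochrome b (mm9 chr11:53242450-53244333), had 436 FPKM in wild-type GV, was listed at 0 in wild-type MII, and had 543 in Erk-/- GV and 114 in the MII library labelled Erk-/-. No fold is given against a library listed at 0, since an exact 0 can be a failed estimate. Uqcrh, the hinge protein that helps cytochrome c1 meet cytochrome c (mm9 chr4:115739570-115747675), had 309, 41.7, 191 and 265 FPKM in the order wild-type GV, wild-type MII, Erk-/- GV, MII labelled Erk-/-. It was 7.40-fold lower at MII in wild type and within 2-fold across maturation in the other genotype. Uqcr10 had 155, 91.5, 355 and 125 FPKM, and was highest in Erk-/- GV. Uqcr11, another small membrane subunit, had 72.2, 58.5, 27.3 and 115 FPKM and took the reverse course, with its lowest value in Erk-/- GV.

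The remaining complex III messages encode catalytic and core subunits and the small subunit Uqcrb. Cyc1, the cytochrome c1 haem protein, had 16.7 FPKM in wild-type GV, was listed at 0 in wild-type MII, and had 18.3 in Erk-/- GV and 4.06 in the MII library labelled Erk-/-. Uqcrfs1, which encodes the Rieske iron-sulphur protein (mm9 chr13:30632181-30637185), had 28.9, 19.4, 103 and 8.22 FPKM in the order of libraries used above. Across maturation it was 12.5-fold lower in the genotype labelled Erk-/- and 1.49-fold lower in wild type. Uqcrb, which binds ubiquinone, had 20.4, 14.7, 31.7 and 2.99 FPKM and followed the same course as Uqcrfs1. Of the core proteins, Uqcrc2 had 108, 19.0, 85.3 and 21.3 FPKM, lower at MII by 5.68-fold and 4.01-fold. Uqcrc1 had 9.18, 0.0594, 2.60 and 0.425 FPKM and was under 10 in every library. Complex III had members on both sides of the genotype comparison at MII: Uqcrq, Uqcrh and Cyc1 higher, Uqcrfs1 and Uqcrb lower.

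Cytochrome c itself, encoded by Cycs (mm9 chr6:50512562-50516473), carries electrons from complex III to complex IV. It had 34.0 FPKM in wild-type GV (bounds 30.5 to 35.7), 11.4 in wild-type MII (9.86 to 12.7), 21.2 in Erk-/- GV (18.5 to 23.0) and 21.2 in the MII library labelled Erk-/- (18.8 to 23.0). Its level was thus 2.98-fold lower after maturation in wild type (log2 ratio -1.50, and -0.71 rescaled) and level across maturation in the other genotype.

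Complex IV is built around a catalytic core encoded in mitochondrial DNA, and the members are its nuclear subunits, which surround and tune that core. The mitochondrially encoded subunits were not analysed here. Cox6a1 (mm9 chr5:115795663-115798964), the member of complex IV with the highest mean, had 573 FPKM in wild-type GV, 238 in wild-type MII, 273 in Erk-/- GV and 677 in the MII library labelled Erk-/-. Between the genotypes the order of GV and MII was turned: 2.41-fold lower at MII in one and 2.47-fold higher in the other. Cox8a (mm9 chr19:7289648-7292106), a very small nuclear subunit, had 186, 597, 249 and 308 FPKM in that order of libraries. It was an abundant exception in wild type, 3.21-fold higher at MII, and wild-type MII was its highest library. Cox6c had 347, 172, 210 and 354 FPKM, close to 2-fold apart in wild type.

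Cox7c (mm9 chr13:86184403-86186400), a small membrane subunit, had 405 FPKM in wild-type GV, was listed at 0 in wild-type MII, and had 194 in Erk-/- GV and 167 in the MII library labelled Erk-/-. Across maturation in the latter genotype it was level within 2-fold (log2 ratio -0.22). Cox4i1 (mm9 chr8:123192190-123198109), the main isoform of the subunit that binds ATP, had 316, 15.5, 328 and 121 FPKM. It was 20.4-fold lower at MII in wild type and 2.71-fold lower in the other genotype, from GV levels that were nearly equal. Cox7b (mm9 chrX:103211039-103217789) had 25.6, 3.72, 8.04 and 59.7 FPKM. Its course was opposed between the genotypes, 6.87-fold lower at MII in wild type and 7.42-fold higher at MII in the genotype labelled Erk-/-.

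Cox5a and Cox5b bind the matrix face of the core. Cox5a had 187, 90.9, 258 and 228 FPKM in wild-type GV, wild-type MII, Erk-/- GV and the MII library labelled Erk-/-. Cox5b had 255, 61.3, 100 and 120 FPKM. Both were lowest in wild-type MII and within 2-fold across maturation in the other genotype. Cox7a2l, a factor that joins complexes III and IV into supercomplexes, had 83.0, 26, 77.4 and 39.1 FPKM. It was 3.19-fold lower at MII in wild type and 1.98-fold lower in the other genotype, with all 4 values inside their bounds.

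Complex V consists of a catalytic F1 head, a peripheral stalk and a membrane part, Fo, in which the c subunits turn as protons pass. In the F1 head Atp5a1 (alpha) had 252 FPKM in wild-type GV, 26.2 in wild-type MII, 190 in Erk-/- GV and 75.3 in the MII library labelled Erk-/-. Atp5b (beta, mm9 chr10:127520363-127527444) had 243, 242, 137 and 329 FPKM. Alpha and beta alternate in equal numbers in the ring, and their messages were at like levels in wild-type GV, while in wild-type MII alpha was at 10.4% and beta at 99.7% of its GV level. Atp5e (epsilon, mm9 chr2:174286576-174289602), the most abundant member in wild-type GV, had 1456, 27.0, 1245 and 574 FPKM. It was 54.0-fold lower at MII in wild type and 2.17-fold lower in the other genotype (log2 ratio -1.12, and -0.91 rescaled).

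The other F1 subunits, of the central stalk, were lower in abundance. Atp5d (delta) had 29.9, 17.4, 78.0 and 5.70 FPKM in the order of libraries used above. The MII library labelled Erk-/- was its lowest and Erk-/- GV its highest, 13.7-fold apart, so that Atp5d shared the course of Uqcrfs1 and Uqcrb. Atp5c1 (gamma) had 10.9, 7.82, 13.0 and 23.4 FPKM and was within 2-fold across both maturations.

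Of the peripheral stalk, Atp5o (OSCP, which ties the stalk to the head) had 121, 7.79, 302 and 13.1 FPKM. It was lower at MII by 15.5-fold and 23.1-fold, much the same in both genotypes. Atp5h (subunit d, mm9 chr11:115277011-115281233) had 160, 28.7, 36.8 and 94.1 FPKM. Atp5j (subunit F6, mm9 chr16:84828116-84835819) had 42.4, 2.26, 22.8 and 66.6 FPKM. For these stalk genes the order of GV and MII was turned between the genotypes, Atp5j being 18.8-fold lower at MII in wild type and 2.92-fold higher in the other. Atp5f1 (subunit b) had 50.3, 6.59, 37.6 and 12.9 FPKM, each inside its bounds, and was lower at MII in both genotypes.

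In the membrane part, the small subunits e, f and g took different courses. Atp5k (subunit e) had 681, 451, 194 and 685 FPKM in wild-type GV, wild-type MII, Erk-/- GV and the MII library labelled Erk-/-. Atp5j2 (subunit f) had 578, 50.9, 353 and 60.8 FPKM. Atp5l (subunit g) had 166, 188, 113 and 250 FPKM. Subunit f was lower in both MII libraries, while subunits e and g were within 2-fold in wild type and 3.54-fold and 2.22-fold higher at MII in the other genotype. Atp5sl carries an ATP synthase name but is now known as a factor in the assembly of complex I. It had 17.9, 2.19, 30.4 and 15.3 FPKM. By its symbol it is included in each complex V count and sum given here, as lower in wild-type maturation and higher for genotype at MII.

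Several subunits have paralogues, and the oocyte used mostly the widely expressed forms. The ring subunit c has 3 genes whose mature proteins are identical. Atp5g1 (mm9 chr11:95934107-95937008) had 442 FPKM in wild-type GV, 18.7 in wild-type MII, 212 in Erk-/- GV and 46.6 in the MII library labelled Erk-/-. Atp5g2 had 163, 81, 272 and 242 FPKM, and Atp5g3 41.5, 64.2, 54.6 and 35.5. The leading gene was Atp5g1 in wild-type GV and Atp5g2 in the other libraries. Atp5g1 was 23.6-fold lower at MII in wild type and 4.54-fold lower in the other genotype, while Atp5g3 was within 2-fold between any pair of libraries compared, with a difference of maturation ratios of -1.22.

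Among the Cox isoforms, Cox4i2, the form known from lung and low oxygen, was listed at 0 in both GV libraries, at 3.81 FPKM in wild-type MII and at 5.03 in MII labelled Erk-/-. Its higher call in both maturations rests on these low values. Cox6a2, the heart and muscle form, had 28.8, 0, 56.6 and 5.0 FPKM in the order wild-type GV, wild-type MII, Erk-/- GV, MII labelled Erk-/-. It was always far below Cox6a1. Cox6b2, the form known from testis, had 173, 70.8, 62.4 and 130 FPKM against 155, 116, 337 and 269 for Cox6b1. The testis form was thus above the common form in wild-type GV and below it in the other libraries. Cox7a2 had 231, 137, 280 and 149 FPKM and was within 2-fold in every comparison, while Cox7a1, the muscle form, Cox7b2, Cox8b and Cox8c were listed at 0.

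At GV 17 members were at least 2-fold apart between genotypes, and at MII 24, while over all genes the shares were 41.3% and 38.8%; the difference between the stages was not tested. In Erk-/- GV 12 of the 44 members were lower than in wild-type GV and 5 were higher, against 22.9% lower and 18.4% higher in the background, with a median of -0.37 and -0.06 for all genes. These shares lie near the background. Of the called members 29.4% were higher, and after rescaling 6 were higher and 9 lower, against 19.1% and 20.8% of all genes. The lowest ratios were those of Sdhc, Atp5h (-2.09) and Atp5k (-1.81), and the highest those of Uqcrfs1 (1.8), Atp5d (1.36) and Atp5o (1.31).

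At MII 21 of the 44 members were higher in the library labelled Erk-/- than in wild type and 3 were lower, against 31.4% higher and 7.43% lower among all genes. The median was 0.96, and 0.31 for all genes. This comparison and that of wild-type maturation share the wild-type MII library, so they are not independent. Of the called members 87.5% were higher, and 70.0% after rescaling, when 14 were higher and 6 lower and the median was 0.43. All genes were then 24.6% higher and 17.1% lower. The library labelled Erk-/- had the larger value for 37 of 44 members, against 60.5% of all genes. Complex IV had 8 of 14 higher and none lower, complex V 8 of 16 higher and 1 lower, complex III 3 of 9 higher and 2 lower, and complex II 2 of 4 higher and none lower. With rescaling these were 4 and 1, 5 and 2, 3 and 2, and 2 and 1, Cox8a, Sdhc and Atp5g3 being the genes that passed to the lower side, and each median kept its sign.

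Summed FPKM at MII in the library labelled Erk-/- was 268% of wild type for complex III, 207% for complex V, 172% for complex IV and 91.5% for complex II. With rescaling these were 185%, 143%, 119% and 63.2%. In complex II Sdha and Sdhc were the lower ones in that library, and Sdhb and Sdhd the higher, and without Sdha the sum was 116%. Among members above 1 FPKM in both MII libraries, Atp5j (29.5-fold), Atp5e (21.3-fold), Cox7b (16.0-fold) and Cox4i1 (7.82-fold) were the furthest above wild type. Uqcrq, Cox7c, Cyc1 and Cox6a2 were present in the library labelled Erk-/- and listed at 0 in wild type. The 3 that were lower were Uqcrb (4.90-fold), Atp5d (3.06-fold) and Uqcrfs1 (2.36-fold).

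In the plot of genotype ratios 6 members were lower in Erk-/- at GV and higher under that label at MII: Atp5g1, Atp5h, Cox6a1, Cox7b, Cox7c and Sdhb. This is 13.6% of the members, against 6.93% of all genes. Uqcrfs1 and Atp5d went the opposite way (4.55%, against 1.74%). Cox6b1 was higher at both stages, and no member was lower at both. Another 14 were within 2-fold at GV and higher at MII, among them Atp5a1, Atp5e, Cox4i1 and Uqcrq, a pattern of 19.3% of all genes.

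**Figure D4:**
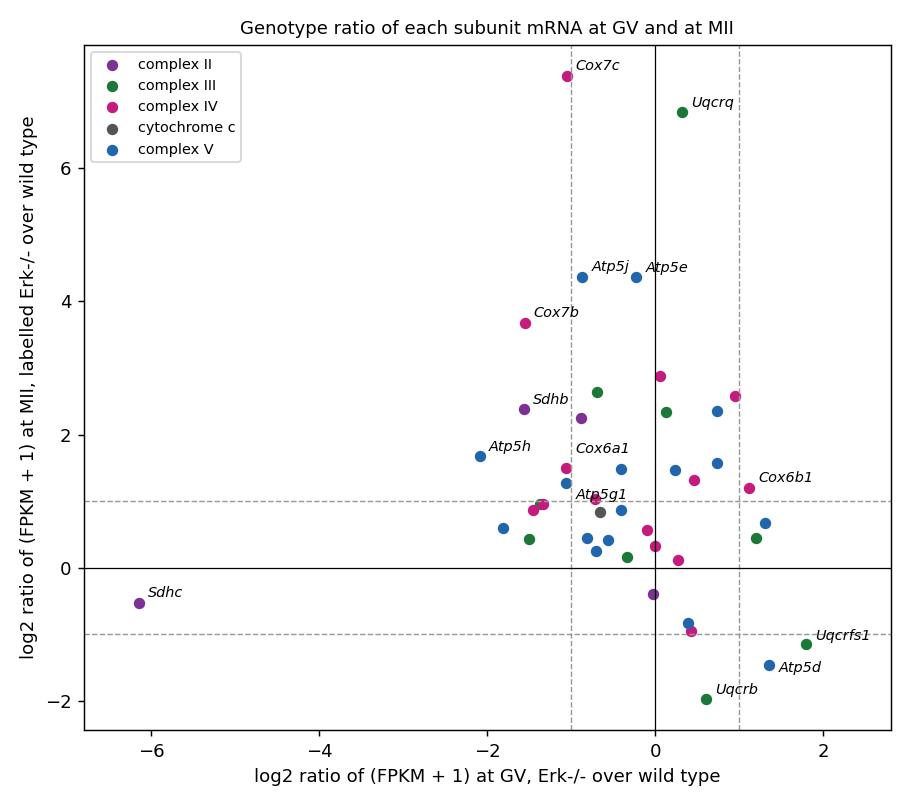
Log2 ratio of (FPKM + 1) of Erk-/- over wild type at GV (horizontal) against the same at MII (vertical, library labelled Erk-/-), 1 point for each of the 44 members, coloured by complex, with dashed lines at 2-fold. Most points lie above 0 on the vertical axis, 37 of 44, and spread to either side of 0 on the horizontal. Cox7c and Uqcrq are high because wild-type MII is listed at 0.

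The maturation ratio under the Erk-/- label minus that in wild type joins all 4 libraries. It was at least 1 for 27 of 44 members and at most -1 for 5, against 41.2% and 18.8% of all genes, with a median of 1.63 and 0.59 for all genes. After rescaling the counts were 23 and 7, against 32.7% and 26.6% of all genes, and the members' median 1.14. In 9 members a lower value at MII in wild type went with less than 2-fold in the other genotype (Atp5sl, Cox5a, Cox5b, Cox6c, Cox7a2l, Cox7c, Cycs, Sdhb and Uqcrh), and 5 were lower in the first and higher in the second (Atp5h, Atp5j, Cox6a1, Cox6b2 and Cox7b). The first pattern held in 20.5% of the members and 18.4% of all genes, and the second in 11.4% and 4.47%. Sdhc also has a large difference (5.62), which comes from its near absence in Erk-/- GV and not from its MII levels.

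Where both values of a gene lay inside their own bounds, the bounds can be set side by side, although they cover uncertainty within a library only. In wild-type maturation 15 of 16 such members had bounds that did not overlap, 13 of them lower at MII and 2 higher, and in all genes 87.1% did not overlap. In the other genotype it was 15 of 16, with 5 higher and 10 lower, against 83.3%. Between genotypes it was 9 of 14 at GV, against 76.6%, and 16 of 19 at MII, against 73.5%, of which 13 were higher and 3 lower under the Erk-/- label. At this width nearly any pair of libraries is apart, so non-overlap sets no member apart from other genes.

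Complex I, the other large complex of the chain, was used as the closest comparison. It was taken as every symbol that starts with Nduf, 45 genes, of which 43 passed the level filter. This rule does not leave out assembly factors named Ndufaf, while assembly factors of complexes II to V were kept in lists of their own. The sets therefore differ in kind of gene, and the part of this in the contrasts below was not tested. In wild-type maturation 32 of 43 were lower and none higher (median -1.95), and at MII 23 were higher in the library labelled Erk-/- and none lower (median 1.29). Complexes II to V thus lay between complex I and all genes by their medians, -1.57 and 0.96 in these comparisons. The difference of maturation ratios had a median of 1.5 in complex I and 1.63 in complexes II to V. The members that were higher at MII in wild type, Cox8a and Cox4i2, had no counterpart in complex I as deposited, while with rescaling 4 genes named Nduf were higher. The name rule also takes in Ndufa4, now counted with complex IV, which is among those 4.

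Proteins that assist the complexes were examined from lists of their own. Of 21 assembly factors of complex IV above the level filter (26 listed), 16 were lower at MII in wild type and 2 were higher, and 11 were higher in the MII library labelled Erk-/- than in wild-type MII. The shares of all genes to set beside these are 49.6%, 20.6% and 31.4%. Of the 11, Coa6 passed the filter only through the MII library labelled Erk-/-, at 8.08 FPKM there and 0 elsewhere. Cox16, Cox17, Surf1 and Coa3 of the 11 were also listed at 0 in wild-type MII, and Sco2, Lrpprc and Coa7 were under 1 FPKM there. Cox17, a copper chaperone, had 280 FPKM in wild-type GV, was listed at 0 in wild-type MII, and had 237 in Erk-/- GV and 99.2 in the MII library labelled Erk-/-. Surf1, whose loss is known as a cause of Leigh syndrome, had 33.3, 0, 115 and 5.56 FPKM. Higd2a, which helps to form supercomplexes, had 48.0, 111, 57.5 and 95.4 FPKM and was one of the exceptions, the other being Cox15 at low level.

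The lists for the other complexes are too small for their shares to be read. Of 4 assembly factors of complex II, 3 were lower at MII in wild type and none higher, and 3 were higher at MII under the Erk-/- label. Sdhaf1 had 16.1, 0, 4.41 and 10.2 FPKM in wild-type GV, wild-type MII, Erk-/- GV and the MII library labelled Erk-/-. All 3 complex III factors above the filter (6 listed) were lower at MII in wild type, and 1 was higher at MII under the label. For complex V, 2 of 4 were lower at MII in wild type and none was 2-fold apart between genotypes at MII.

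Later-named subunits and a regulator formed a further list of 4. Ndufa4, now counted with complex IV, had 159, 287, 54.5 and 206 FPKM. Usmg5, a small membrane subunit of complex V, had 135, 78.0, 21.8 and 182 FPKM. Their lowest library was Erk-/- GV, as it was for Atp5k and Uqcr11. The small complex V subunit gene 2010107E04Rik had 198, 99.9, 307 and 159 FPKM, with Erk-/- GV as its highest library. Atpif1, the inhibitor that stops complex V from running backwards, had 138 FPKM in wild-type GV, was listed at 0 in wild-type MII, and had 129 in Erk-/- GV and 6.63 in the MII library labelled Erk-/-.

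Nuclear regulators of respiratory genes were the last list. Of 11 above the filter (12 listed), 7 were lower and 2 higher at MII in wild type, and 8 were lower and none higher in the other genotype, against 49.6% and 35.6% of all genes lower. In Erk-/- GV 7 were higher than in wild-type GV and none was lower (18.4% and 22.9% of all genes), while at MII 2 were higher and none lower. The 7 were Gabpa, Ppargc1b, Pprc1, Esrra, Yy1, Tfb2m and Polrmt, all under 10 FPKM in wild-type GV. Gabpa, Ppargc1b and Esrra passed the filter only through their Erk-/- GV values (5.06, 3.68 and 8.28 FPKM), so their part in this count was favoured by the filter. Nrf1, a transcription factor of many respiratory genes, had 49.6 FPKM in wild-type GV, 11.5 in wild-type MII, 56.1 in Erk-/- GV and 8.23 in the MII library labelled Erk-/-. Tfam, which packages and transcribes mitochondrial DNA, had 5.57, 0, 10.2 and 0.144 FPKM. Tfb2m, a mitochondrial transcription factor, had 1.72, 27.4, 13.7 and 17.2 FPKM and was higher at MII in wild type. In wild-type maturation the share lower, 63.6%, was about that of the subunits, 61.4%. The difference of maturation ratios had a median of -0.61 for regulators, 1.63 for subunits and 0.59 for all genes.

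**Figure D5:**
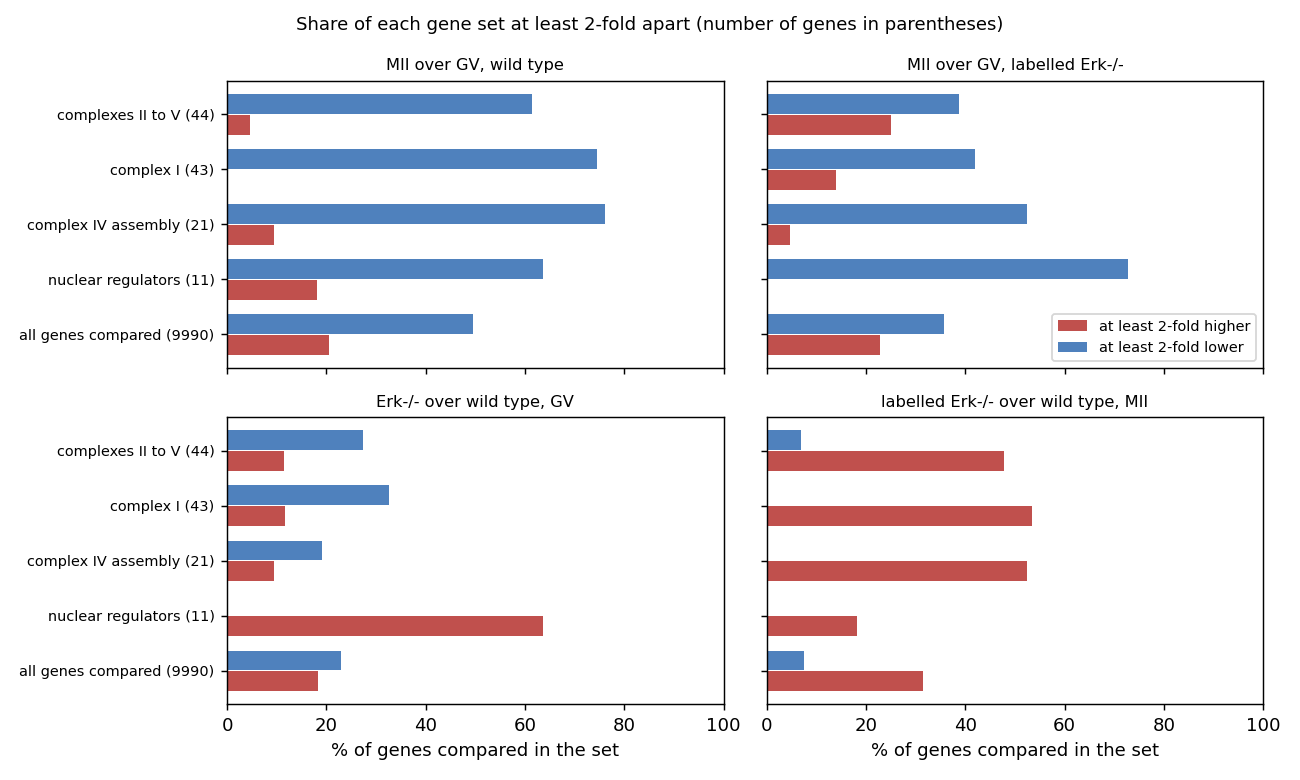
Share of each gene set that was at least 2-fold higher (red) or lower (blue) in the comparison named above each panel, with the number of genes compared in parentheses. In wild-type maturation 61.4% of the subunit genes of complexes II to V were lower, against 49.6% of all genes. At MII 47.7% were higher under the Erk-/- label, against 31.4% of all genes.

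The members are short messages. Their median transcript length was 809 bases, coding length 387 and 3′ UTR 189, against 2827, 1365 and 874 in all matched genes. Across the 43 members Spearman's rho between coding length and the log2 ratio was 0.04 for wild-type maturation and -0.21 for genotype at MII; across the 9109 genes it was 0.07 and -0.05. These are descriptions across genes of the same libraries, and genes are not replicates. The 22 members with the shorter coding sequences had a median of -1.39 in wild-type maturation and 0.96 for genotype at MII, and the 21 with the longer ones -2.44 and 0.87. In the genotype labelled Erk-/- the medians across maturation were 0.13 and -1.32.

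Genes with and without the polyadenylation element in their last 100 bases also differed across the whole table. Those with it (1772 genes) had a median of 0.28 in wild-type maturation, with 37.2% higher and 29.0% lower. Those without it (7337 genes) had a median of -1.33, with 16.4% higher and 55.0% lower. The members' own counts, 61.4% lower and 4.55% higher, are to be read beside those of the genes without the element, since only 2 of the 43 matched members hold it. At MII the genotype ratio had a median of -0.07 with the element and 0.47 without it, against 0.96 for the members. The part of transcript length, 3′ end and expression level in these differences was not tested.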

How the data were processed

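The authors deposited FPKM per gene with a lower and an upper bound, per the file headers. CASAVA 1.8, TopHat and build mm9 are named in the submitters' processing notes. The program that computed FPKM, its annotation, the level of the bounds and the sequencing depth were not given in the sources used here, so no counting interval can be given. Each file held 23813 rows for 23309 symbols, and rows of 1 symbol were summed. Groups came from the sample titles.

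Ratios were log2((FPKM + 1)/(FPKM + 1)) over genes whose mean reached 1 FPKM; a fold printed for one gene is its FPKM ratio without the added 1. A 2-fold ratio was counted as higher or lower, a rule of size. Rescaling divided each library by its median-of-ratios factor (0.741 to 1.31), which moved the median of all genes by 0.67 in wild-type maturation, 0.18 in the other maturation, 0.06 for genotype at GV, -0.31 at MII and -0.49 for the contrast of both maturations. Alternatives were this rescaling, a pseudocount of 0.1, a mean of at least 10 FPKM, no filter, the highest row of each symbol and leaving out genes listed at 0. Leaving out values outside their bounds and using the middle of the bounds were added after the data were seen.

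Members and gene lists (97 genes in 11 lists, 91 found) were chosen with earlier results of these data known. All members are accounted for. Values are given for the 3 highest of each complex, for the 2 highest and lowest ratios of each complex at 10 FPKM or more in wild-type maturation and in genotype at MII, for members listed at 0, for paralogues, for members whose call turned between genotypes, and for up to 4 genes of each other list. The counting of calls was tested on simulated data. Transcript ends came from GENCODE M21 (GRCm38) by symbol. Scripts used python 3.11.15, pandas 2.3.3, numpy 2.4.6 and matplotlib 3.10.9. No protein sequences or mitochondrially encoded genes were analysed here. One gene outside the members is not reported here.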

Additional observations from a re-analysis of the deposited data

Results flagged for a closer look

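The members below were at least 2-fold apart in opposite directions in 2 contrasts of the same kind. With single libraries, none of these differences was tested. Values are log2 ratios of (FPKM + 1).

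Across maturation, 5 members were lower at MII in wild type and higher at MII in the genotype labelled Erk-/-. Cox7b, a small subunit of complex IV, stood at -2.49 in wild type and 2.75 in the other genotype. Atp5j, of the peripheral stalk of complex V, stood at -3.74 and 1.51, and Atp5h, its neighbour in the stalk, at -2.44 and 1.33. Cox6a1 stood at -1.26 and 1.30, and Cox6b2 at -1.28 and 1.05. With rescaling Cox6a1 was at -0.44 and Cox6b2 at -0.46 in wild type, under 2-fold.

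Between genotypes, 6 members were lower in Erk-/- at GV and higher under that label at MII. Cox7c stood at -1.06 at GV and 7.39 at MII, where wild type is listed at 0, and Cox7b at -1.56 and 3.68. Sdhb, the iron-sulphur subunit of complex II, stood at -1.57 and 2.38, and Atp5h at -2.09 and 1.68. Cox6a1 stood at -1.06 and 1.5, and Atp5g1 at -1.06 and 1.27. The members that took the opposite course were Uqcrfs1, at 1.8 and -1.15, and Atp5d, at 1.36 and -1.46. Mapk3, used to check the genotype, was not lower under the Erk-/- label at MII as deposited, an order that turns with rescaling. Each direction at MII therefore rests on that label.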

How the results depend on the processing

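No paired analysis was possible because each group has 1 library. Single libraries, unknown depth and values above their own bounds limit every result, and leaving out a library ends its comparison.

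No member's call turned direction under any alternative. Of 220 member calls, 29 moved across 2-fold with rescaling, 2 with a pseudocount of 0.1 and 1 with the middle of the bounds. Higher members in wild-type maturation numbered 4 with rescaling and 1 with a mean of at least 10 FPKM, without genes listed at 0 or without values outside their bounds, in place of 2. Lower members for genotype at MII numbered 6 with rescaling, in place of 3. Leaving out values outside their bounds kept 13 to 19 members, so counts were smaller by construction: 11 lower in wild-type maturation, 3 higher and 7 lower in the other maturation, 0 higher and 4 lower for genotype at GV, 8 higher at MII, and 9 higher and 0 lower for the difference of maturation ratios. The medians of the members kept their sign under all of these, and the other counts stayed within 1.5 times.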
